A study of Homo sapiens with 4 samples.

Results

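miR-199 and miR-214 are microRNAs (miRNAs) best known from mesenchymal cells such as fibroblasts. They were followed here through an RNA pull-down experiment in 2 gastric cancer cell lines. The members were chosen by name, as 5 mature names of 843 in the table: hsa-miR-199a-3p, hsa-miR-199b-3p, hsa-miR-199a-5p, hsa-miR-199b-5p and hsa-miR-214-3p. The first pair is a single sequence with a single set of counts, written miR-199-3p below, so there were 4 distinct sequences. All of them were listed in HGC27, and miR-199b-5p was listed in neither AGS library.

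HGC27 and AGS are established human gastric cancer lines, and in both the 3′-UTR of FN1, the fibronectin gene, had been stably overexpressed from a lentivirus. Lysate of each line was mixed with streptavidin beads that carried an in vitro transcribed RNA probe to this 3′-UTR, either the positive or the negative one, and the RNA left on the beads was sequenced as small RNA. The 4 libraries, HGC27 and AGS with either probe, are therefore 4 groups of 1 library, every one from cells that overexpressed the 3′-UTR, and a line without it was not analysed here. The study's methods name an antisense RNA as the biotinylated probe on the beads, whereas the sample protocol names an RNA or its antisense. Neither says which of these is the positive and which the negative probe, so the ratios below are not taken as binding to either strand. With 1 library per group, there was no replicate spread to judge a difference within a line by, and the intervals given cover counting error only.

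A miRNA hairpin can release a mature strand from its 5′ side (5p) and from its 3′ side (3p). One strand is usually loaded into Argonaute and kept, and the other is usually degraded, so the arms of a hairpin need not have the same level. miR-199 is made from 3 hairpins and miR-214 from 1. In GRCh38, MIR199A2 lies on chromosome 1 from 172144535 to 172144644 and MIR214 from 172138798 to 172138907, both on the minus strand, with 5627 bases between them. Both overlap annotated exons of the noncoding RNA DNM3OS, which runs opposite to an intron of DNM3, and DNM3OS is known as their shared precursor in mesenchyme. MIR199A1 lies on chromosome 19 from 10817426 to 10817496 and MIR199B on chromosome 9 from 128244721 to 128244830, each on the strand opposite to an intron of a further dynamin gene, DNM2 and DNM1. miR-199a-5p can come from either a hairpin, miR-199b-5p only from the b hairpin, and miR-199-3p from all 3.

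The sequences are shown because the results differ by arm, with the seed (bases 2 to 8, counted from the 5′ end) in capitals. They are those of the deposited tables, and 4 of the 5 names were found with the same sequence in the RefSeq table (GRCh38.p14), the exception being miR-199b-5p.
miR-199-3p: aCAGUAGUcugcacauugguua
miR-199a-5p: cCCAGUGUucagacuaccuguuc
miR-199b-5p: cCCAGUGUuuagacuaucuguuc
miR-214-3p: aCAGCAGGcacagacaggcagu
miR-214-5p: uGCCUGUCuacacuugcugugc
The last is the other arm of the miR-214 hairpin and is given as a partner, not as a member. miR-199a-5p and miR-199b-5p share their seed and differ at 2 positions outside it, C10U and C17U, with the base of miR-199a-5p first. miR-199-3p and miR-214-3p begin with the same 4 bases and have different seeds. No other entry of the table shared a seed with a member, and none of the miRNAs predicted by the authors was an end variant of one. miR-3120, encoded on the strand opposite to miR-214, was not listed in any library.

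The table held between 1296853 and 2955078 miRNA counts per library. Levels below are the deposited tags per 1000000 (TPM, with T for tags), and a single count was worth between 0.139 and 0.362 of them. miR-372-3p took 80.8% of the counts of the AGS negative probe library and 37.5% of those of the AGS positive probe library, against at most 0.300% in HGC27, so that scaling matters for any comparison that involves AGS. A miRNA without an entry in a library is called not listed, since the lowest count in the table was 2.

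The member with the highest level, miR-199-3p, was at 2646 TPM in HGC27 with the negative probe and at 21 with the positive probe. In AGS it was at 2 and 4. Raw counts were 7692 and 58 in HGC27, and 11 and 15 in AGS. Only the HGC27 negative probe library was high, where it ranked 22 of 441 known miRNAs listed, and it ranked 140 of 424 in the HGC27 positive probe library.

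miR-199a-5p was at 162 TPM with the negative probe and 285 with the positive probe in HGC27, from 472 and 787 counts. In AGS it had 3 and 6 counts, which is 0 and 1 after rounding of the level. miR-199b-5p was at 22 and 48 in HGC27, from 64 and 133 counts. Both 5p sequences were thus low or not listed in AGS and, unlike miR-199-3p, had their higher level with the positive probe in HGC27.

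miR-214-3p was at 24 and 7 TPM with the negative and positive probe in HGC27, from 71 and 19 counts. In AGS it had 2 counts with the negative probe and was not listed with the positive probe. Its partner miR-214-5p was at 92 and 34 in HGC27, from 269 and 95 counts, and had 3 and 2 counts in AGS. Both miR-214 arms were therefore highest in the HGC27 negative probe library.

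**Figure D1:**
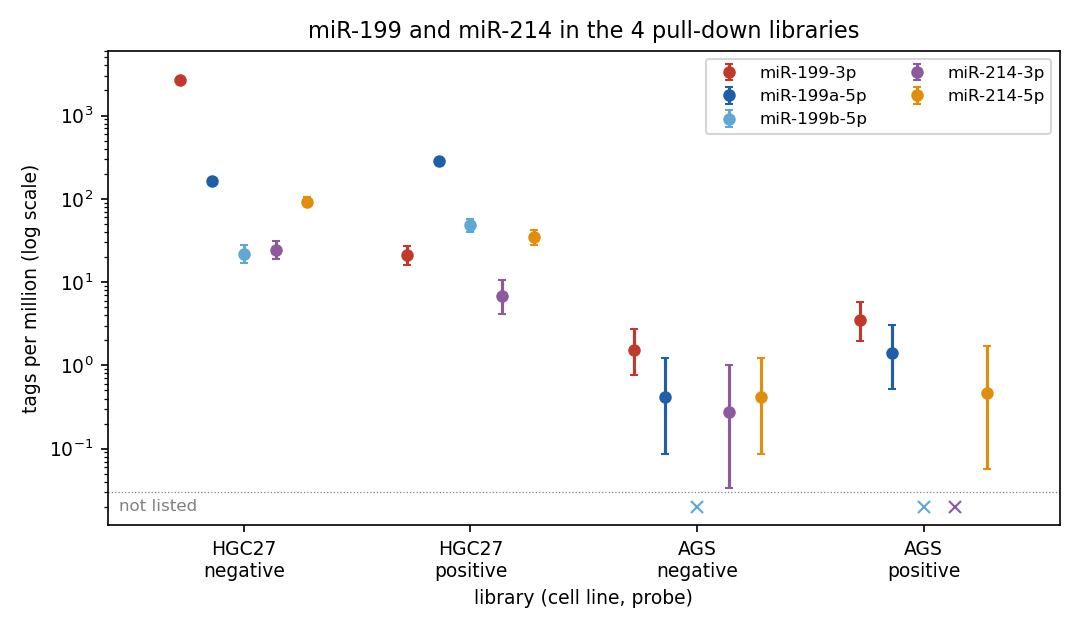
TPM (counts over the recovered divisors, log scale) of the 4 member sequences and of miR-214-5p in each library, with exact 95% counting intervals and crosses for entries not listed. miR-199-3p stands at 2646 in the HGC27 negative probe library and at 21 or lower in the other 3.

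Within the HGC27 negative probe library the order was miR-199-3p, miR-199a-5p, miR-214-5p, then miR-214-3p and miR-199b-5p, whose counting intervals overlapped. With the positive probe it was miR-199a-5p, miR-199b-5p, miR-214-5p, miR-199-3p and miR-214-3p. Here the intervals of miR-199b-5p and miR-214-5p overlapped. miR-199-3p thus moved from the first to the fourth place of the 5. In AGS every pair of neighbours in the order had overlapping intervals.

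The comparison of the probes asks what the positive probe recovered beyond the negative one. In HGC27, miR-199-3p was much lower with the positive probe, while the 5p sequences of the same hairpins were higher. Its ratio (TPM + 1 in both libraries) had a log2 value of -6.91, and the fold from the counts was 126 lower with the positive probe (exact 95% CI 97.4 to 166). This was the second lowest of the 365 entries that reached 10 counts in either HGC27 library. miR-199a-5p had a log2 ratio of 0.81, a fold of 1.75 (1.56 to 1.97), below the ratio of 2 used for calling. miR-199b-5p had a log2 ratio of 1.09, a fold of 2.19 (1.61 to 2.99), and was called higher, a call lost with a pseudocount of 10 (log2 ratio 0.86). miR-214-3p had a log2 ratio of -1.64, a fold of 3.55 lower (2.12 to 6.24), and was called lower. miR-214-5p had a log2 ratio of -1.41, a fold of 2.69 lower (2.12 to 3.44). None of these intervals includes 1.

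Of the 4 member sequences in HGC27, 1 had a ratio of at least 2 and 2 had a ratio of at most 0.5. Over all 754 entries listed in the line the percentages were 37.5 and 34.0, and the median log2 ratio was 0.00, so members were past the threshold about as often as other entries. With the ratio threshold at 4, only miR-199-3p of the 4 was past it.

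In AGS no member could be told apart between the probes. The fold of miR-199-3p was 2.29 with an exact 95% CI of 0.983 to 5.51, and that of miR-199a-5p was 3.36 with a CI of 0.718 to 20.8. miR-199a-5p had a ratio of 2.00, which just met the threshold, but it rested on 6 against 3 counts. It was the only 1 of the 4 called, where 39.5% of 458 entries had a ratio of at least 2. Entries with a ratio of at most 0.5 made up 22.7% there and held no member. For miR-199-3p the lower bound of 0.983 lies far above the HGC27 fold of 0.00793 on the same scale, and the other members had too few counts in AGS to measure a decrease. That bound covers counting error on the deposited scale only. When scaled to totals that omit miR-372-3p, the AGS log2 ratio of miR-199-3p was -0.29.

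**Figure D2:**
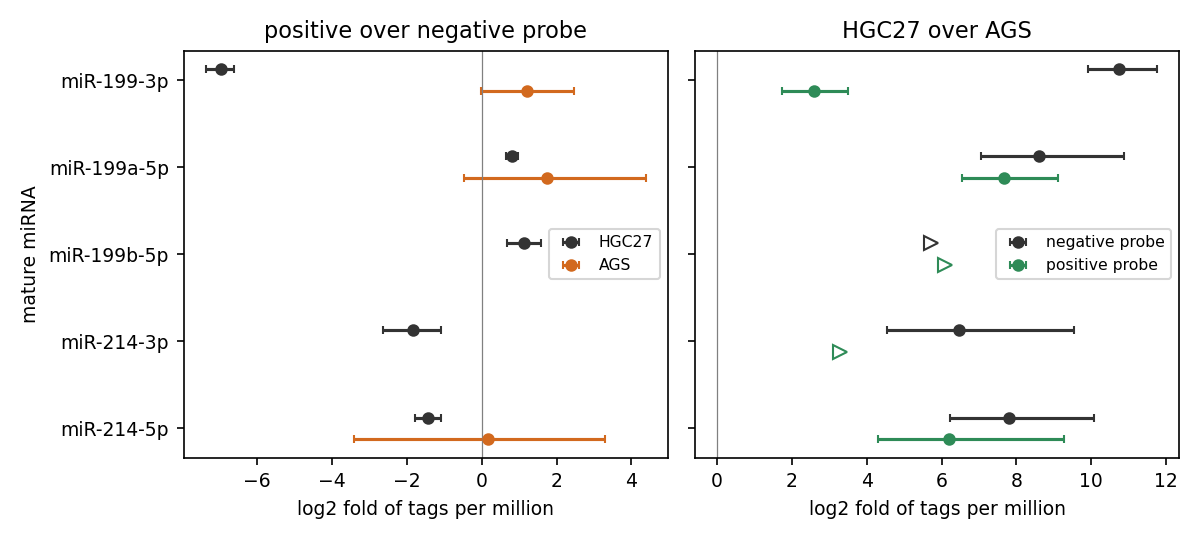
Log2 fold of TPM with exact 95% counting intervals, for the positive over the negative probe (left) and for HGC27 over AGS (right). Open triangles are folds against a floor of 3 counts for sequences not listed in AGS, drawn without an interval. Pairs without a value in both libraries have no point on the left. In HGC27, miR-199-3p sits near -7 while both miR-199 5p sequences lie to the right of 0.

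The arms of a hairpin in a library share its scaling, so their proportion does not depend on the divisor. In the HGC27 negative probe library the 5p sequences made up 6.51% of the 8228 miR-199 counts (exact Clopper-Pearson 95% CI 5.99 to 7.07). In the positive probe library they made up 94.1% of 978 counts (92.4 to 95.5). There were 14.4 counts of 3p for each count of 5p with the negative probe, and 15.9 counts of 5p for each of 3p with the positive probe. The odds ratio of the arms between the libraries was 227 (exact 95% CI 172 to 306). With miR-199b-5p left out the shares were 5.78% and 93.1%.

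In AGS the 5p share was 21.4% of 14 counts (4.66 to 50.8) with the negative probe and 28.6% of 21 counts (11.3 to 52.2) with the positive probe. The odds ratio between these libraries was 1.45 (0.241 to 11.0). Between the lines, the 5p odds with the positive probe were 39.2-fold higher in HGC27 (13.8 to 128), while with the negative probe the ratio of HGC27 to AGS was 0.256, with an interval of 0.0672 to 1.43 that includes 1. The HGC27 positive probe library was thus the one in which the observed 5p counts outnumbered the 3p counts, although the intervals of both AGS shares include equal counts of the arms.

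Neither of the other proportions within the group moved in this way. miR-199b-5p was 11.9% of the 5p counts (9.32 to 15.0) with the negative probe in HGC27 and 14.5% (12.2 to 16.9) with the positive probe, an odds ratio of 1.25 (0.897 to 1.74). miR-214-5p was 79.1% of both miR-214 arms (74.4 to 83.3) and then 83.3% (75.2 to 89.7), an odds ratio of 1.32 (0.739 to 2.44). Both of these odds ratios have intervals that include 1, which does not show that the proportions were equal.

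**Figure D3:**
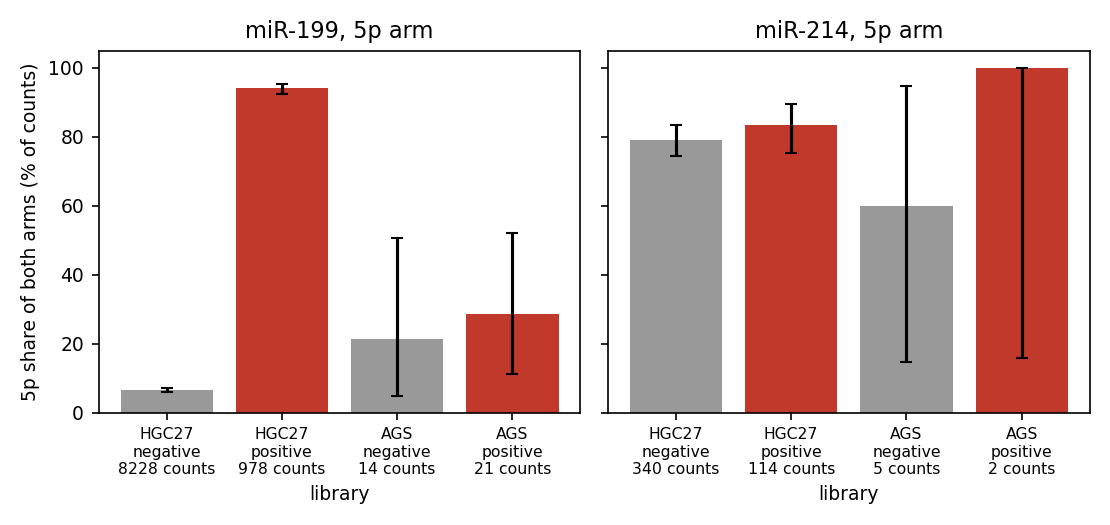
Share of the 5p arm among the counts of both arms, for miR-199 (left, a and b summed) and miR-214 (right), in each library with exact 95% intervals. The total of both arms is under each bar. The miR-199 share goes from 6.51% to 94.1% between the probes in HGC27, while the miR-214 share stays near 80% there.

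The arms of other hairpins give the background to this. Arms were paired where their names differ only in 5p and 3p, and miR-199 was added with its 5p sequences summed. Arms whose names differ in more than that, such as miR-125b-5p and miR-125b-1-3p, were not paired. In HGC27, 54 hairpins paired in this way had at least 10 counts for each arm over both libraries. The log2 ratio of the 5p arm minus that of the 3p arm was 7.76 for miR-199, the largest of the 54 in size by this measure. By the log2 odds of the arms, with 0.5 added to each count, miR-365a was higher, at 9.03 against 7.82. The next were miR-365a at 6.17, on few counts (21 and 0 for its 5p arm, 3 and 42 for its 3p arm with the positive and negative probe), and miR-423 at 4.66, names chosen after their values were seen. The median size over the 54 was 1.79, and the median of the signed difference was -0.04. In 27 of the 54 the arms had opposite signs. In 4 (7.41%) the 5p arm had a ratio of at least 2 and the 3p arm of at most 0.5. miR-199 was not 1 of these, since its summed 5p log2 ratio was 0.85. miR-199 had too few counts in AGS to enter the same comparison. There the difference between arms was larger over 26 hairpins, with a median size of 3.69 and a value of 9.39 for miR-423, and 23.1% had a 5p ratio of at least 2 with a 3p ratio of at most 0.5.

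**Figure D4:**
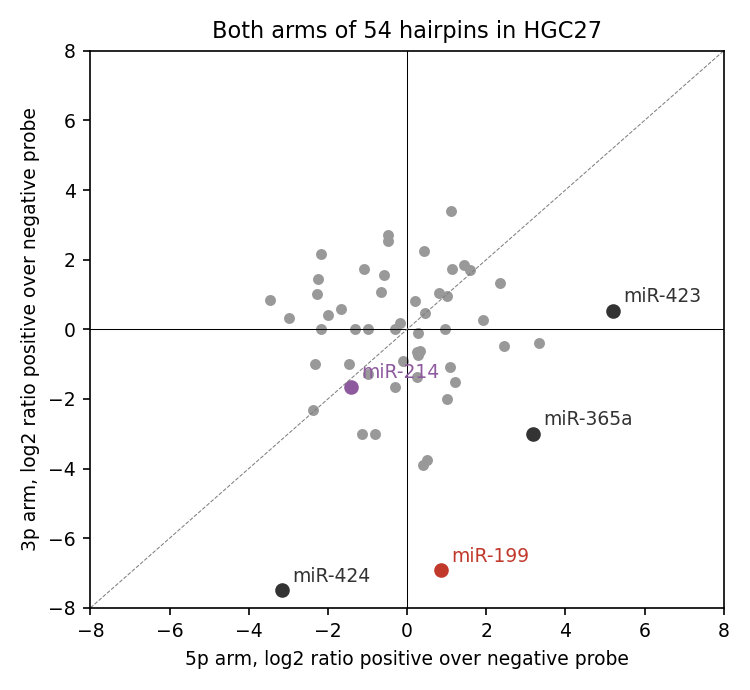
Log2 ratio of the positive over the negative probe in HGC27 for the 3p arm against the 5p arm of 54 hairpins (points); the dashed line marks equal ratios. miR-199 lies at 0.85 and -6.91, the farthest of the 54 from the line, and miR-214 lies close to it.

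In the comparison of the lines, all members were higher in HGC27 on the deposited scale. With the negative probe, the exact fold of HGC27 over AGS was 1727 for miR-199-3p (95% CI 965 to 3461), 389 for miR-199a-5p (132 to 1891) and 87.7 for miR-214-3p (23.4 to 738). miR-199b-5p, not listed in AGS, was at least 52.7-fold higher against a floor of 3 counts in the library. With the positive probe the folds were 5.98 for miR-199-3p (3.34 to 11.4) and 203 for miR-199a-5p (92.8 to 554). miR-199b-5p was then at least 68.6-fold and miR-214-3p at least 9.79-fold higher. The values against the floor leave out the counting error of the HGC27 count and are not limits of an exact interval. In a bulk pull-down, fewer cells that hold a miRNA, less of it per cell and lower recovery cannot be told apart. The line difference of miR-199-3p was far smaller with the positive probe, while that of miR-199a-5p was of a similar size with both.

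These folds stand on a scaling under which most miRNAs were higher in HGC27. The 4 member sequences all had a ratio of at least 2 with either probe, as did 86.0% of all entries with the negative probe and 75.3% with the positive probe, while 6.03% and 12.9% had a ratio of at most 0.5. The median log2 ratio of all entries was 1.58 and 1.00, against 9.79 and 2.14 for miR-199-3p and 7.35 and 7.16 for miR-199a-5p. By rank from the highest, miR-199-3p was 3 of 329 with the negative probe but 197 of 331 with the positive probe, and miR-199a-5p was 14 and 10. Under DESeq2 size factors the negative probe log2 ratios were smaller, at 7.39 for miR-199-3p, 4.71 for miR-199a-5p and 2.41 for miR-214-3p (4.64 on the deposited scale), and the median of all entries was 0.46. With the same size factors the positive probe log2 ratio of miR-199-3p was 0.01, and under TMM scaling 0.31, so its higher level in HGC27 with that probe rests on the scaling.

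A fit of all 4 libraries allowed the only tests, with the probes standing in for replicates of a line and the lines for replicates of a probe. In the edgeR quasi-likelihood test of the cell line, with the probe as covariate and Benjamini-Hochberg adjustment over 270 miRNAs, 3 of the 4 member sequences were called higher in HGC27, where 22.2% of all miRNAs tested were, 7.78% were lower and 30.0% were called in either direction. The fitted log2 difference was 5.25 ± 1.33 (SE) for miR-199a-5p, with an adjusted p of 0.000786 in edgeR, and 3.54 ± 1.33 for miR-214-3p, with an adjusted p of 0.0296. miR-199b-5p was called as well (adjusted p 0.000635 in edgeR), and its fitted fold has no fixed size because it was not listed in AGS. For miR-199-3p it was 3.79 ± 1.73, which missed the threshold (adjusted p 0.0867 in edgeR). The partner miR-214-5p was called, at 4.11 ± 1.30 (adjusted p 0.00839). miR-199a-5p, miR-199b-5p and both miR-214 arms passed the filter on low counts only through their HGC27 libraries, so their calls support nothing by themselves. The median log2 difference of all miRNAs tested was 0.62, and 3.17 with library totals in place of TMM. With no filter on low counts none of the 4 was called.

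The test of the probe, with the line as covariate, called none of the 4 sequences, where 11.9% of the 270 were called, 6.30% higher and 5.56% lower with the positive probe. Of the 4, 0 had an unadjusted p under 0.05 in edgeR, 1 (miR-199-3p) did in DESeq2 and 1 (miR-214-3p) in limma-voom, and neither of these tools called any. The fitted log2 difference of miR-199-3p was -3.51 ± 1.79 (SE), with an adjusted p of 0.240 in edgeR. Without AGS, a value with no test, it was -6.79, and without HGC27 it was 0.46. The values of miR-199a-5p, miR-199b-5p and miR-214-3p were 0.90, 1.29 and -1.97, with adjusted p from 0.330 to 0.704 in edgeR.

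Other miRNAs of mesenchymal and epithelial cells show how the lines stood. Of a list of 15 further miRNAs known from mesenchymal or stromal cells, 14 were listed, and with the negative probe 12 of them had a ratio of HGC27 to AGS of at least 2 (86.0% of all entries did). In edgeR 3 of the 7 that passed the filter were called higher in HGC27 and 0 lower, against 22.2% and 7.78% of all miRNAs tested. These were miR-10b-5p (5.24 ± 1.31), miR-125b-5p (5.88 ± 1.38) and miR-143-3p (3.55 ± 1.26 SE), and miR-143-3p differs from the miR-199-3p pattern, with 1999 counts in the negative and 9123 in the positive probe library of HGC27. The most abundant of the list were not called: miR-100-5p had a log2 line difference of 2.93 ± 1.47 (adjusted p 0.120 in edgeR) and miR-22-3p of -2.07 ± 1.66 (adjusted p 0.391). Of the 7, 4 had a positive and 3 a negative log2 line difference, the others with a negative value being miR-221-3p (-1.62) and miR-222-3p (-2.24), neither of them called. Of 10 epithelial miRNAs, which hold down the inducers of mesenchymal change in the case of the miR-200 family, 8 were listed. With the negative probe 6 of these 8 had a ratio of at most 0.5 (6.03% of all entries did), and in edgeR 6 of 7 were called lower in HGC27, against 7.78% of all miRNAs tested. These were not the same 6, since miR-141-3p was not tested in edgeR. miR-192-5p was called (log2 line difference -3.32) although it was at 120 TPM in HGC27 and 116 in AGS with the negative probe. The edgeR counts rest on TMM scaling, where the median log2 line difference was 0.62, against 3.17 with library totals. miR-200c-3p was at 617 TPM in HGC27 and 6105 in AGS with the negative probe, and miR-203a-3p at 128 and 1998. The line in which miR-199 and miR-214 were high was thus the line in which most of the epithelial list was low, as measured with the negative probe.

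With the positive probe 10 of the 14 mesenchymal miRNAs had a ratio of HGC27 to AGS of at least 2 (75.3% of all entries did). The summed level of the epithelial list was then 495 TPM in HGC27 and 1047 in AGS, against 922 and 10445 with the negative probe, and 4 of its 7 listed miRNAs had a ratio of at most 0.5 and 1 of at least 2. That of the mesenchymal list was 23663 in HGC27 and 13742 in AGS, against 27922 and 774 with the negative probe. In AGS most of that sum was miR-22-3p, at 13287 TPM with the positive and 586 with the negative probe. Both lists thus differed less in sum between the lines with the positive probe, which is not a statement on each miRNA. miR-203a-3p was lower with the positive probe across both lines (-4.43 ± 1.57 SE, adjusted p 0.0499 in edgeR). It was the only 1 of the 7 epithelial miRNAs tested that was called, just under the threshold. The probe test called no miRNA with library totals, no filter, limma-voom, no line term, or at least 10 counts in every library. The mesenchymal list had 0 of 7 called for the probe.

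The miRNAs whose pattern over the 4 libraries was nearest to that of each member were found by the distance between log2 TPM + 1, centred on each miRNA, among known miRNAs with at least 100 counts. For miR-199-3p they were miR-424-3p (distance 2.31; 179 TPM in the HGC27 negative probe library and 0 in the other 3), miR-1246 (3.25) and miR-542-3p (3.36), against a median of 5.97 over 188 candidates. For miR-199a-5p they were miR-218-5p (0.38), miR-10b-5p (0.67) and miR-126-3p (1.08), the last known from endothelium. For miR-199b-5p they were miR-204-5p (0.03), miR-328-3p (0.27) and miR-767-5p (0.27). miR-214-3p, with 92 counts in all, was below the count used for this. With 4 libraries these distances are descriptions only.

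Complements of the seeds were searched in the FN1 3′-UTR, which is 1101 bases long in the annotated transcript used (GENCODE 29) and lies at chr2:215360454-215361554 on the minus strand. A 7-base complement of the seed was found once for miR-199-3p (ACTACTG) and not for the 5p pair (ACACTGG), miR-214-3p (CCTGCTG) or miR-214-5p (GACAGGC), on either strand. Of 568 distinct known sequences in the table, 41 (7.22%) had such a match on the mRNA strand. This search was chosen after the values were seen. The match of miR-199-3p covers bases 646 to 652 of the 3′-UTR, shown in capitals with its flanks from chr2:215360895-215360917 on the minus strand.
FN1 site: aaagctttACTACTGtggaaaga
The sequence with a match had the lowest probe ratio among the members in HGC27, whereas its log2 ratio in AGS was 0.74. A match of letters is not a measured site, and a relation between seed matches and probe ratios was not tested.

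Base composition also moved with the probe ratio over the table as a whole, a relation looked for after the values were seen. Across 294 distinct known sequences that reached 10 counts in either HGC27 library, the log2 ratio fell with the share of A in the sequence (Spearman rho -0.48, Pearson r -0.45), and across 198 in AGS as well (rho -0.46, r -0.43). These points share libraries and depth and are not independent, so no p is given. miR-214-3p has 8 A in 22 bases and was lower with the positive probe, and the miR-199 5p sequences have 4 in 23 and were higher. miR-214-5p has 2 in 22 and was lower all the same. miR-199-3p has 6 in 22, and the 44 sequences with 6 A in HGC27 had a median log2 ratio of 0.07 and ran from -7.49 to 5.20. The part of base composition in the ratios of the members was not tested.

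**Figure D5:**
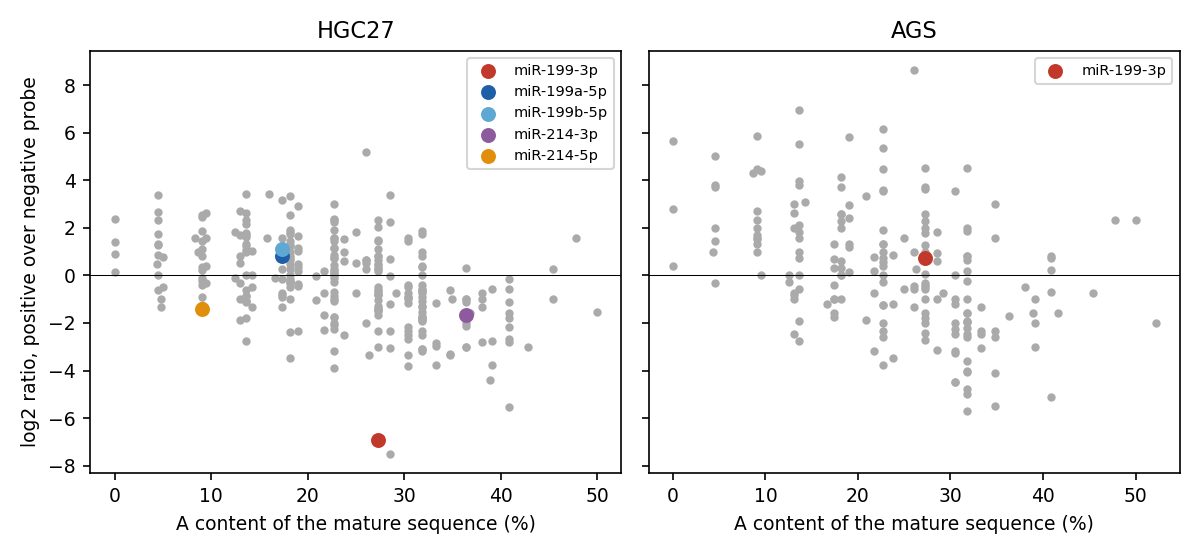
Log2 ratio of the positive over the negative probe against the percentage of A in the mature sequence, for known miRNAs that reached 10 counts in either library of that line (grey), with the members and miR-214-5p in colour. In HGC27 miR-199-3p lies at -6.91, near the bottom of the sequences of similar A content; in AGS only miR-199-3p has enough counts to be drawn.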

How the data were processed

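Small RNA was sequenced from pull-down material of 4 libraries, 1 per group of cell line and probe. Values were deposited for each pair of mature miRNA and precursor. One was the raw count of tags. The other, treated here as a score, was the level that the authors scaled to tags per 1000000 and rounded. The submitters' processing notes name cutadapt 1.9.3, Novoalign 3.02.12 and hg38, without their roles. How reads matching several miRNAs were assigned is not given in the sources used here. The methods describe scaling to tags aligned to miRNAs, but the divisors recovered from both files were 2763267 to 7179129, and the counts of the table were 35.7% to 50.0% of them.

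The 901 rows were collapsed to 843 names, and miR-199a-3p and miR-199b-3p were merged, which left 842 entries. A blank was taken as 0. Ratios used the deposited score + 1, called at 2 or 0.5. Fold intervals are exact conditional binomial intervals of the counts with the recovered divisors, odds ratios are conditional, and shares carry Clopper-Pearson intervals (SciPy 1.17.1). Counts were fitted in edgeR 4.0.16 (R 4.3.3) with TMM, filterByExpr, line and probe, and tested by quasi-likelihood at an adjusted p of 0.05. SE is the absolute log2 fold change over the root of the F statistic. The fit left 1 residual degree of freedom and was tested on simulated data. Its prior degrees of freedom were infinite, so the quasi-likelihood spread was shared by all miRNAs and not estimated for each. The common biological coefficient of variation was 0.599. Alternatives used DESeq2 1.42.0 and limma 3.58.1. The p-values measure only the spread between these libraries. Named were the members, their hairpin and locus partners, seed mates, the 3 nearest patterns and 2 lists of miRNAs, with examples of the highest counts. The members, lists and tests were chosen with earlier results of these data known.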

Additional observations from a re-analysis of the deposited data

Results flagged for a closer look

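The probe ratio of miR-199-3p had opposite signs in the 2 lines. Its log2 ratio of the positive over the negative probe was -6.91 in HGC27 and 0.74 in AGS, so HGC27 minus AGS was -7.65. The difference was not tested, since each line has 1 library per probe. The AGS value rested on 11 and 15 counts, its interval includes no change, and it was -0.29 when scaled to totals that omit miR-372-3p.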

How the results depend on the processing

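In HGC27 the log2 probe ratio of miR-199-3p was -6.42 with a pseudocount of 10, and under the other settings tried it stayed within its counting interval. A threshold of 4 left 1 member sequence past it there, and a pseudocount of 10 left 2, both lower, without miR-199b-5p (0.86). In AGS the number past the threshold, 1 as reported, was 0 with a pseudocount of 10, 0 under DESeq2 size factors, 0 with unrounded values, 0 with at least 10 counts, 0 at a threshold of 4 and 2 with the totals of the table. It was 1 in the opposite direction, miR-214-3p with 2 counts against none listed, under TMM and when scaled to totals that omit miR-372-3p. For HGC27 over AGS with the negative probe, the log2 ratios under TMM were 7.60 for miR-199-3p, 5.18 for miR-199a-5p, 4.39 for miR-199b-5p and 2.92 for miR-214-3p. For the line, edgeR called 0 of the 4 sequences with no filter and 0 of the 1 left with at least 10 counts in every library, and 3 in the other settings, though not the same 3 in each. The adjusted p of miR-199-3p for the line ran from 0.0355 (DESeq2) to 0.757 (no filter), and it was also called without the probe term (adjusted p 0.0428 in edgeR). The adjusted p of miR-214-3p for the line passed 0.05 in DESeq2 (0.330), without the probe term (0.131) and with no filter (0.304). The edgeR probe value of miR-199-3p turned to 0.46 without HGC27 and was -6.79 without AGS, both with no test. Without miR-199b-5p the 5p share of miR-199 in the HGC27 negative probe library was 5.78%.

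Over all miRNAs the edgeR probe test made 32 calls, 19 with both names of miR-199-3p kept, and 0 with library totals, no filter, at least 10 counts in every library, limma-voom or no line term, where 50, 67, 25, 74 and 17 had an unadjusted p under 0.05. The line test made 81 calls, 60 higher and 21 lower in HGC27, against 163 (149 and 14) with library totals, 59 (33 and 26) in DESeq2, 17 with at least 10 counts in every library and 6 with no filter. Unrounded values, both names kept and shares without miR-199b-5p were chosen after seeing the data. Predicted end variants could not be added to the arms, since none was in the table. No paired analysis was possible because no replicate number is given for any library and every group holds a single one, beyond the setting of the probes against each other within a line that the line covariate of the probe test already gives. Low counts limit what can be said of AGS, where a member had at most 15. The AGS libraries had the higher totals, but miR-372-3p took 80.8% (negative probe) and 37.5% (positive probe) of them.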
